A study of Homo sapiens with 6 samples.

Results

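The 39 genes described here encode the NRF2 regulators, a selection of NRF2 targets and the main antioxidant enzymes of human cells. They were taken by symbol from a list, with no threshold on their values, and each was found among the 30330 Ensembl genes measured. SOD2 has a second Ensembl identifier, at a mean of 3.82 normalized reads in the resistant and 3.33 in the control libraries, and the identifier with more reads, ENSG00000112096, was used. All 39 members passed the filter on low values, as did 24560 genes in total.

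The libraries are bulk RNA-seq from NCI-H1975, an established human lung adenocarcinoma line, and from H1975/OSI, a derivative of it that tolerates osimertinib, an inhibitor of the EGFR kinase. The resistant line was obtained over 7 months by intermittent exposure to osimertinib steps of 0.03, 0.1, 0.3, 1 and 3 µM, and is represented by 3 libraries. The 3 control libraries came from NCI-H1975 and are labelled only as control. The labels do not say whether drug was present when RNA was taken, whether the resistant line is 1 clone, or whether the libraries of a group are separate cultures. The p-values below reflect library-to-library spread alone, part or all of which may be technical.

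NRF2 (gene NFE2L2) is a transcription factor that cells hold at a low protein level by binding it to KEAP1, an adaptor of a CUL3 ubiquitin ligase that sends it to the proteasome. Oxidants and electrophiles modify KEAP1, NRF2 then enters the nucleus, pairs with a small MAF protein such as MAFG and binds antioxidant response elements, from which BACH1 can displace it. Its known targets make and recycle glutathione, run the thioredoxin system, store iron, degrade haem, supply NADPH and reduce quinones and carbonyls. In lung adenocarcinoma the pathway is known mainly through KEAP1 and NFE2L2 mutations. NRF2 is controlled largely at the protein level, which RNA reads do not measure.

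Recovered depth was 15174126 to 16588479 reads per library. Resistant library 1 stood apart: a chi-square statistic per gene was 12.1 and 13.5 against the other resistant libraries, 2.42 between those, and 2.55 to 3.93 among the controls. For 25 members it was the highest of the resistant libraries and for 10 the lowest. The matching shares over all genes were not computed, so these counts may describe the library and not the members. Results that change without library 1 are given both ways. Mitochondrial genes took 5.53 ± 0.178% of reads in the resistant and 6.88 ± 0.440% in the control libraries (SD, n = 3 each). Of 12 lung epithelial markers 11 were measured, and their summed level was 42923 to 50329 normalized reads in the resistant and 60122 to 63654 in the control libraries. Of the 10 that were tested 2 were higher (MUC1, at 2446 against 1297, and NKX2-1, at 461 against 287), 5 lower (among them EPCAM, at 17.6 against 379) and 3 not called (among them KRT7, at 12803 against 13355), while the surfactant genes SFTPB and SFTPC were near 0 in both lines and SFTPA1 was not analysed here. Of 6 leukocyte markers 4 were measured, and they summed to 288 to 336 against 414 to 422 normalized reads, mostly from CD14. The 4 endothelial markers summed to 557 to 759 against 290 to 332, with CDH5 at a mean of 579 against 126 and PECAM1 lower, at 83.3 against 181, and 5 measured of 7 fibroblast markers summed to 32954 to 36163 against 4982 to 5950.2, most of the difference being COL1A2. VWF, KDR, LUM and THY1 were each below 10 normalized reads in every library. The part of any of these shifts in the results below was not tested. In bulk RNA, fewer cells of a type and less RNA per cell cannot be told apart.

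Of the 39 members, 23 passed the test across all genes (limma-trend, Benjamini-Hochberg adjusted p under 0.05), 5 of them higher and 18 lower in the resistant line. That is 59.0% of the members, where 41.5% of all genes tested were called, 20.4% higher and 21.1% lower. The members are well expressed, however. Among the 11230 genes with a mean of at least 100 normalized reads, which include 38 members, 63.1% were called, 28.1% higher and 34.9% lower. The share of members called was therefore close to that of these genes, and the members' calls divided more towards lower values. Many members lie far above that minimum, and genes matched to them in abundance were not compared. The median log2 fold change of the members (resistant minus control, on the log2(value + 1) scale) was -0.17, against 0.01 for all genes and -0.04 for those with a mean of at least 100. Differences were small: no called member reached 2-fold, a size that 13.6% of all genes reached with a call. The resistant libraries lay wholly below the controls for 18 members, wholly above for 9, and the ranges overlapped for 12. Of all genes tested, 25.4% lay wholly below and 24.7% wholly above, or 50.1% without overlap. That share was not computed for genes with a mean of at least 100.

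**Figure D1:**
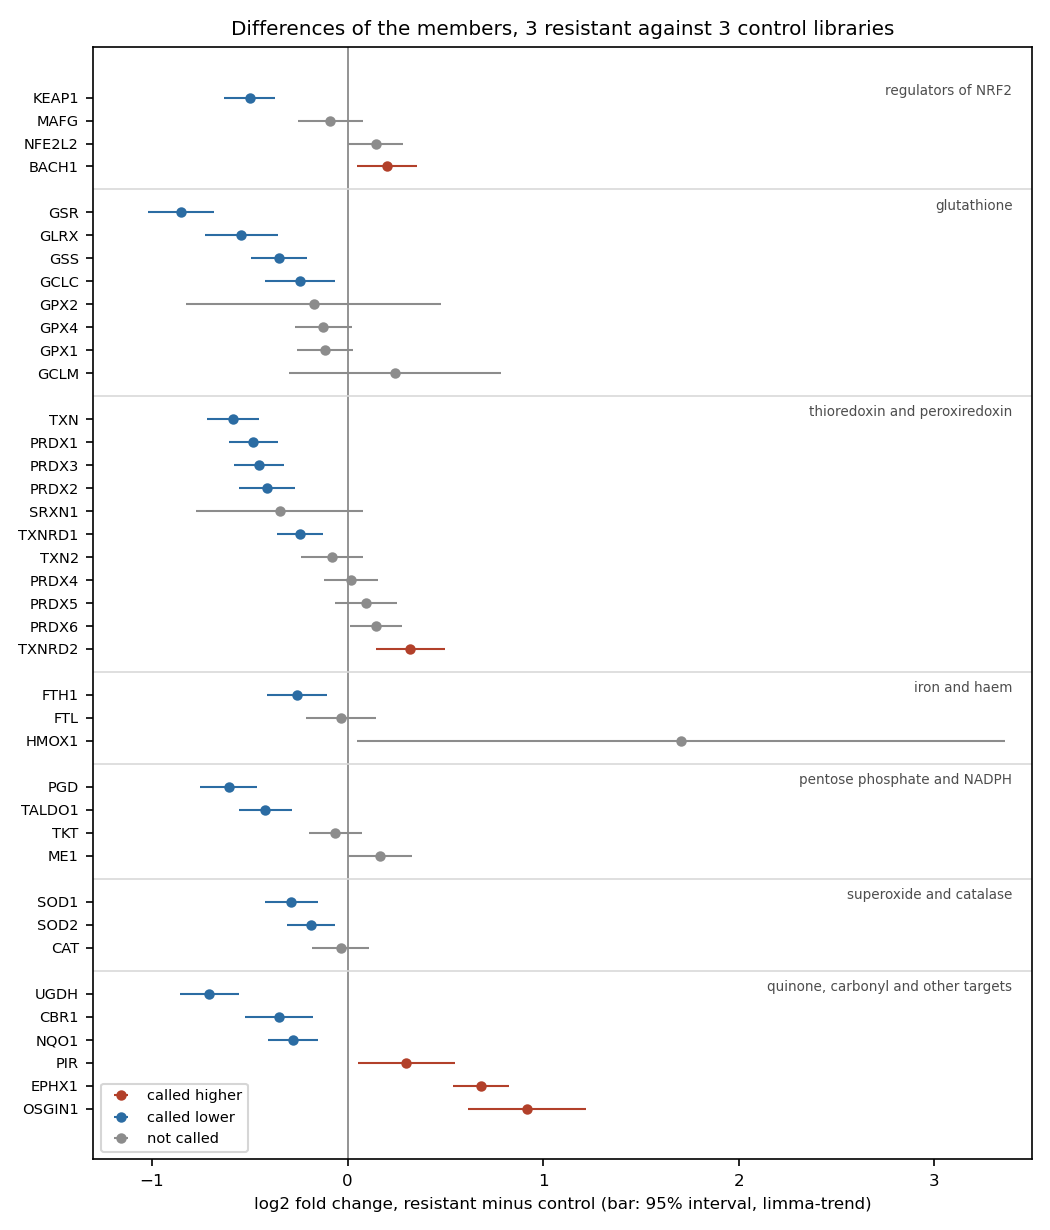
Log2 fold change of each of the 39 members (x axis, resistant minus control, log2 scale) with its 95% interval from limma-trend, n = 3 libraries per group, members ordered within role groups on the y axis. Most points lie left of 0, from GSR at -0.85, and HMOX1 at 1.71 carries by far the widest interval.

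Levels per kilobase of gene model spread widely. The ferritin chains led, with FTH1 at 25655 and FTL at 16820.3 normalized reads per kilobase in the control libraries, followed by the glutathione peroxidases GPX1 at 4125 and GPX4 at 3972 and by thioredoxin, TXN, at 3694. GPX2, a glutathione peroxidase known from gut epithelium, was lowest at 13.6 per kilobase.

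The core of the antioxidant response element, TGACNNNGC, was searched on both strands in the 250 bases before each RefSeq start (build GRCh38.p14). A promoter was matched for 31 members, and 6 of them (19.4%) held the core, where 3830 of 35116 RefSeq promoters (10.9%) did. A single promoter was counted for each member, but every promoter entry for all genes. HMOX1, FTH1, GSS, GSR, TXN2, PRDX1, PRDX6 and SOD1 had no matched promoter and were not searched. Elements further from the start were not searched either. By direction, none of the 5 promoters of higher members held it, 3 of 13 of the lower members did (PGD, TXNRD1 and CBR1), and so did 3 of 13 of those not called (GCLM, ME1 and GPX2). The 6 windows are shown because they are the places in these promoters where NRF2 could be looked for, and they stand beside lower members and members not called. Each runs 5′ to 3′ on the gene's strand, with the core in capitals. In PGD, GCLM, GPX2 and CBR1 the core lies on the opposite strand and appears as its reverse complement.
PGD: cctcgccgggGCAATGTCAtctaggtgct
GCLM: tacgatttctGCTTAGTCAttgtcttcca
ME1: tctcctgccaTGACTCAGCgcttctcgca
TXNRD1: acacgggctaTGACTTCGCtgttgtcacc
GPX2: acctgtttttGCTAAGTCAtcctggggat
CBR1: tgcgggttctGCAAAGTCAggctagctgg

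The PGD window is chr1:10398853-10398881 on the plus strand, within an intron of the longer gene model in GENCODE 29, with the core 201 to 193 bases before the RefSeq start. The GCLM window, chr1:93909446-93909474 on the minus strand, reaches into the annotated first exon and UTR but lies mostly upstream of the gene model, with the core 34 to 26 bases before the start. That of ME1, chr6:83431170-83431198 on the minus strand, is upstream of the gene model, 137 to 129 bases before the start. For TXNRD1 it is chr12:104215670-104215698 on the plus strand, also upstream, 99 to 91 bases before. The GPX2 window, chr14:64942849-64942877 on the minus strand, lies in an annotated exon and UTR, 122 to 114 bases before, and that of CBR1, chr21:36069855-36069883 on the plus strand, is upstream, 159 to 151 bases before. Read on its own strand, the core was TGACTCAGC in ME1, TGACTTAGC in GPX2, TGACTAAGC in GCLM, TGACTTTGC in CBR1, TGACTTCGC in TXNRD1 and TGACATTGC in PGD. A match is a description of letters and not a site of binding.

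Among the regulators, the clearest difference was a lower level of KEAP1, while NFE2L2 itself did not pass the test. NFE2L2 (ENSG00000116044, chr2:177227595-177392697) had 1665, 1780.4 and 1916 normalized reads in resistant libraries 1 to 3 and 1573, 1631 and 1642 in controls 1 to 3. Every resistant library lay above every control, but the log2 fold change was only 0.14 (95% interval 0.00 to 0.29, limma adjusted p = 0.101). Without resistant library 1 it was 0.19, with an adjusted p of 0.00798 by limma. Leaving out any other library left NFE2L2 uncalled. The limma value was 0.15 without resistant library 2 (adjusted p = 0.187) and 0.09 without library 3 (adjusted p = 0.364). Without 1 of the controls it was 0.12 to 0.16 (adjusted p 0.129 to 0.271). Scaling moved the NFE2L2 value as well, to 0.21 with quantile normalization (limma adjusted p = 0.0169) and to 0.0092 with median centring (adjusted p = 0.934).

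KEAP1 (ENSG00000079999, chr19:10486120-10503741), the NRF2 adaptor of the CUL3 ligase, had 1794, 1907 and 1849 normalized reads in the resistant and 2598, 2688 and 2566 in the control libraries. The groups were far apart relative to their spread, with a log2 fold change of -0.50 ± 0.06 (SE, limma adjusted p = 6.09e-07), and the call held under all 15 alternative settings. BACH1, the repressor that competes for the same elements (chr21:29194071-29630751), had 1667, 1402 and 1549.8 against 1348, 1260.5 and 1399 normalized reads. Its resistant libraries lay just above the controls, with the lowest of them at 1402 and the highest control at 1399. The log2 fold change was 0.20 (limma adjusted p = 0.0314), and the call was lost under 6 settings, among them median centring (0.07, limma adjusted p = 0.507) and leaving out resistant library 1 (0.14, adjusted p = 0.0752). MAFG, the small MAF partner, had 614, 613 and 609 against 704, 629 and 622 normalized reads, a log2 fold change of -0.09 (95% interval -0.26 to 0.08, limma adjusted p = 0.42). With median centring MAFG was -0.22 (limma adjusted p = 0.0337), and with quantile normalization -0.03 (adjusted p = 0.831).

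In the glutathione group 4 of 8 members were lower and none higher, with a median log2 fold change of -0.21. Among genes with a mean of at least 100 normalized reads, 34.9% were lower and 28.1% higher. The lower members were GCLC, GSS, GSR and GLRX. GSR, glutathione reductase, regenerates reduced glutathione with NADPH. This gene (ENSG00000104687) had 449.7, 478 and 529 normalized reads in the resistant libraries and 855, 889.5 and 879.9 in the controls. The highest resistant library stood well under the lowest control. Controls exceeded resistant libraries 1.80-fold, a log2 fold change of -0.85 ± 0.08 (SE, limma adjusted p = 8.09e-09), the largest decrease among the members.

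GLRX, a glutaredoxin that removes glutathione from protein thiols (chr5:95751319-95823005), had 648, 516 and 499 normalized reads against 825, 781 and 802, with no overlap. Its log2 fold change was -0.54 ± 0.09 (SE, limma adjusted p = 3.04e-05). GSS, which adds glycine in the last step of glutathione synthesis, averaged 1029 ± 44.5 against 1310.0 ± 18.2 normalized reads (SD, n = 3 each), a log2 fold change of -0.35 by limma (adjusted p = 0.000226).

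The subunits of glutamate-cysteine ligase, which makes the first and limiting step, gave different values. GCLC, the catalytic subunit, had 456, 469.8 and 529.8 normalized reads against 563, 577 and 580.2, a log2 fold change of -0.24 (limma adjusted p = 0.0259). All resistant libraries were below all controls, yet the GCLC call was lost under 7 settings, among them quantile normalization (-0.21, limma adjusted p = 0.0615), DESeq2 (adjusted p = 0.0505) and leaving out any 1 control. GCLM, the modifier subunit, had 717, 398 and 447 against 414, 394 and 471 normalized reads. Resistant library 1 was the sole library above the control range, and the log2 fold change of 0.24 (95% interval -0.30 to 0.79, limma adjusted p = 0.453) became -0.01 without it (adjusted p = 0.94).

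None of the glutathione peroxidases passed the test. GPX4, which reduces lipid hydroperoxides in membranes and is known as the brake on ferroptosis, had 8288, 7286 and 6585 normalized reads against 8216, 8053 and 7791. Resistant library 1 lay above the controls and the other resistant libraries below them. The log2 fold change was -0.12 (95% interval -0.27 to 0.02, limma adjusted p = 0.169), and without resistant library 1 it was -0.21 (adjusted p = 0.000379). GPX1, the abundant cytosolic form, was at -0.11 (95% interval -0.26 to 0.03, limma adjusted p = 0.203), and without resistant library 1 at -0.15 (adjusted p = 0.0279). With median centring both passed the threshold, GPX4 at -0.26 (limma adjusted p = 0.00275) and GPX1 at -0.25 (adjusted p = 0.00408). Quantile normalization brought both near 0, GPX4 to -0.0054 (limma adjusted p = 0.951) and GPX1 to 0.0067 (adjusted p = 0.945). Leaving out resistant library 3 gave -0.05 for GPX4 (limma adjusted p = 0.669) and -0.04 for GPX1 (adjusted p = 0.715). GPX2 averaged 18.2 ± 4.24 against 20.5 ± 3.33 normalized reads (SD, n = 3 each), too few to resolve a difference smaller than the 95% interval of -0.82 to 0.48.

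The thioredoxin and peroxiredoxin group held 5 lower and 1 higher of 11 members, with a median log2 fold change of -0.24. The shares among genes with a mean of at least 100 were 34.9% lower and 28.1% higher. Cytosolic thioredoxin, TXN (ENSG00000136810, chr9:110243811-110256640), which reduces protein disulfides and the peroxiredoxins, had 2968, 2840.0 and 2622 normalized reads in the resistant and 4125, 4218 and 4312 in the control libraries. The groups did not overlap, and the log2 fold change was -0.59 ± 0.06 (SE, limma adjusted p = 6.06e-08). Its reductase, TXNRD1, a selenoenzyme fed by NADPH, had 8642, 8274 and 8402 against 10053, 9795 and 10089 normalized reads. These too were apart, at a log2 fold change of -0.24 (limma adjusted p = 0.00138), but quantile normalization left -0.07 (adjusted p = 0.375). The TXNRD1 call was also lost with limma without trend (adjusted p = 0.0644).

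In mitochondria the partners are TXN2 and TXNRD2. TXN2 averaged 913 ± 72.5 against 964 ± 20.7 normalized reads (SD, n = 3 each), a log2 fold change of -0.08 (95% interval -0.24 to 0.08, limma adjusted p = 0.439). With median centring TXN2 was at -0.21 (limma adjusted p = 0.0251), and with quantile normalization at -0.0083 (adjusted p = 0.944). TXNRD2, the reductase of TXN2, was higher, with 581, 647 and 599 against 503, 505 and 455 normalized reads and a log2 fold change of 0.32 (limma adjusted p = 0.0037). All resistant libraries exceeded all controls, while median centring left 0.19 (adjusted p = 0.093) and limma without trend lost the call (adjusted p = 0.054).

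Peroxiredoxins, which reduce hydrogen peroxide and are mostly recycled by thioredoxin, were lower for 3 of 6 members. PRDX1 (3259, 3386 and 3199 against 4468, 4673 and 4613 normalized reads) had a log2 fold change of -0.48 (limma adjusted p = 5.53e-07). PRDX2 (3779, 3391 and 3151 against 4653, 4764 and 4303) was at -0.41 (limma adjusted p = 3.22e-05), and mitochondrial PRDX3 (2641, 2599 and 2559 against 3558, 3446 and 3671) at -0.45 (limma adjusted p = 1.75e-06). In each of these the resistant libraries lay wholly below the controls.

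The other peroxiredoxins were not called. PRDX4, of the endoplasmic reticulum, was at 0.02 (95% interval -0.12 to 0.15, limma adjusted p = 0.876). PRDX5 was at 0.10 (95% interval -0.06 to 0.25, limma adjusted p = 0.344), and both signs turned negative with median centring, at -0.12 for PRDX4 and -0.04 for PRDX5. PRDX6, which uses glutathione in place of thioredoxin, had 3603, 3422 and 3264 against 2985, 3243 and 3082 normalized reads. Its resistant libraries lay above the controls, at a log2 fold change of 0.14 (95% interval 0.01 to 0.28, limma adjusted p = 0.0765). With quantile normalization PRDX6 passed the threshold, at 0.24 (adjusted p = 0.0022), whereas median centring left 0.0097. SRXN1, the sulfiredoxin that repairs over-oxidized peroxiredoxins and a known NRF2 target, had 73.4, 113 and 99.6 against 155, 129.9 and 84.8 normalized reads. These ranges overlapped, at a log2 fold change of -0.35 (95% interval -0.78 to 0.08, limma adjusted p = 0.192). Without control 3 the SRXN1 value was -0.59 (adjusted p = 0.0237), and without control 1 it was -0.16 (adjusted p = 0.613).

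**Figure D2:**
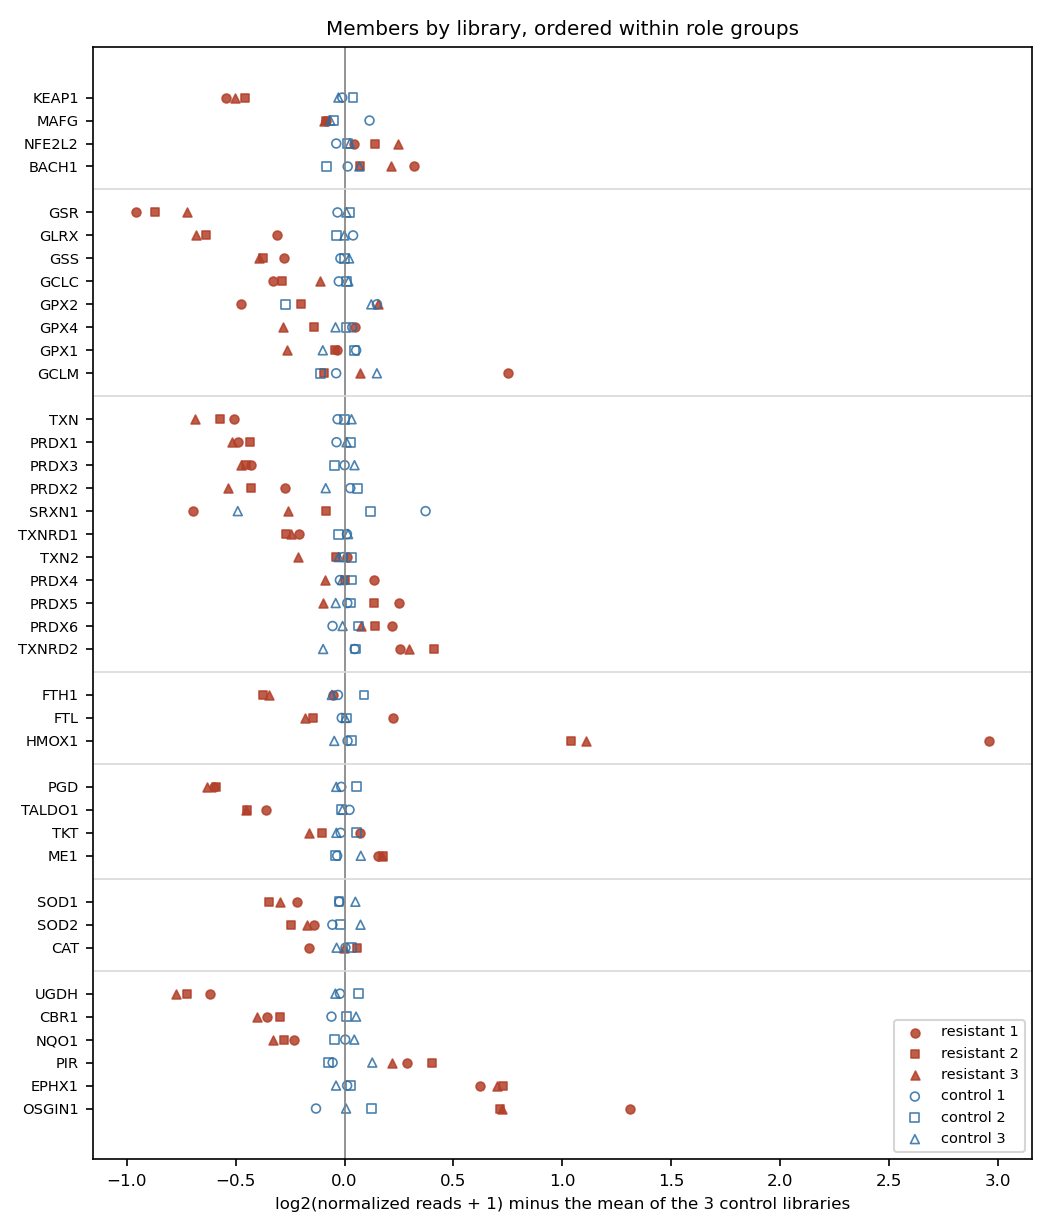
Difference of each library from the control mean, on the log2(normalized reads + 1) scale (x axis), for the 39 members ordered within role groups (y axis), with 1 point per resistant and control library. TXN, PRDX1, PRDX2, PRDX3, GSR and PGD have all resistant points left of all control points, while GCLM, HMOX1 and FTL have resistant library 1 far to the right of the other resistant libraries.

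The iron and haem group was the one in which resistant library 1 weighed most. HMOX1 (ENSG00000100292, chr22:35380361-35394214), haem oxygenase, which opens haem and releases its iron, had 8624, 2278 and 2389 normalized reads in the resistant libraries and 1116, 1132 and 1069.8 in the controls. All resistant libraries were above all controls, and library 1 was far above the others. The mean was 4430.3 ± 3632 against 1106 ± 32.2 (SD, n = 3 each), a ratio of 4.01. The log2 fold change of 1.71 ± 0.61 (SE, 95% interval 0.05 to 3.36) did not pass limma (adjusted p = 0.098) or edgeR (2.004, adjusted p = 0.0851), but did pass DESeq2 (2.002, adjusted p = 0.00545). Without resistant library 1 the difference was 1.08 (limma adjusted p = 1.49e-17). Over all settings the HMOX1 difference ranged from 1.08 to 2.04 on the log2 scale (adjusted p 1.49e-17 to 0.216), and its call depended on that library and on the tool.

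FTH1, the ferritin heavy chain, which oxidizes iron for storage, had 50084, 40108 and 40840.1 normalized reads against 50939.9, 55338 and 49962. The groups overlapped through resistant library 1, and the log2 fold change was -0.26 (95% interval -0.41 to -0.11, limma adjusted p = 0.00706). The call was lost under 5 settings, among them quantile normalization (-0.07, limma adjusted p = 0.3) and leaving out resistant library 2 (-0.20, adjusted p = 0.0715) or control 2 (-0.22, adjusted p = 0.0652), and without resistant library 1 the value was -0.36 (adjusted p = 3.37e-10). FTL, the light chain, had 17237, 13353 and 13031 against 14636, 14870.2 and 14799 normalized reads. Library 1 was above and the other resistant libraries below every control, at a log2 fold change of -0.03 (95% interval -0.21 to 0.14, limma adjusted p = 0.782). Without library 1 the FTL value was -0.16 (adjusted p = 0.00116), without library 2 it was 0.02 (adjusted p = 0.889) and without library 3 0.04 (adjusted p = 0.76). Processed copies of FTH1 could share its reads, and 13 of them together held 1.03% of the gene's level.

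Of the 23 other iron and haem genes tested, 5 were higher, 7 lower and 11 not called, with a median log2 fold change of -0.03. Of all genes tested 20.4% were higher and 21.1% lower. TFRC, the transferrin receptor for iron uptake, had 1721, 3673 and 3631 normalized reads against 8284, 8206 and 8277. Library 1 was again the extreme, here the lowest, and all resistant libraries were far below the controls. The log2 fold change was -1.54 (95% interval -2.49 to -0.59, limma adjusted p = 0.0278), it was -1.18 without library 1 (adjusted p = 2.31e-22), and leaving out any 1 control lost the call (adjusted p 0.0886 to 0.0899), as did the replicate block (adjusted p = 0.0774).

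SLC39A14, which imports non-transferrin iron, zinc and manganese, had 10254, 7921 and 8077 against 4353, 4345 and 4075 normalized reads, a log2 fold change of 1.03 (limma adjusted p = 3.17e-09). Its groups were far apart. CP, the ferroxidase ceruloplasmin, averaged 849 ± 133 against 358 ± 11.5 normalized reads (SD, n = 3 each), a log2 fold change of 1.23. BLVRB, biliverdin reductase B, averaged 989 ± 91.6 against 526 ± 16.9, a log2 fold change of 0.91. ALAS1, the first enzyme of haem synthesis, averaged 733 ± 44.2 against 1269 ± 59.5, at -0.79. CP, BLVRB and ALAS1 passed the limma test with ranges apart. BLVRB and ALAS1 were chosen after their values were seen, and the other haem genes of the list are not shown.

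**Figure D3:**
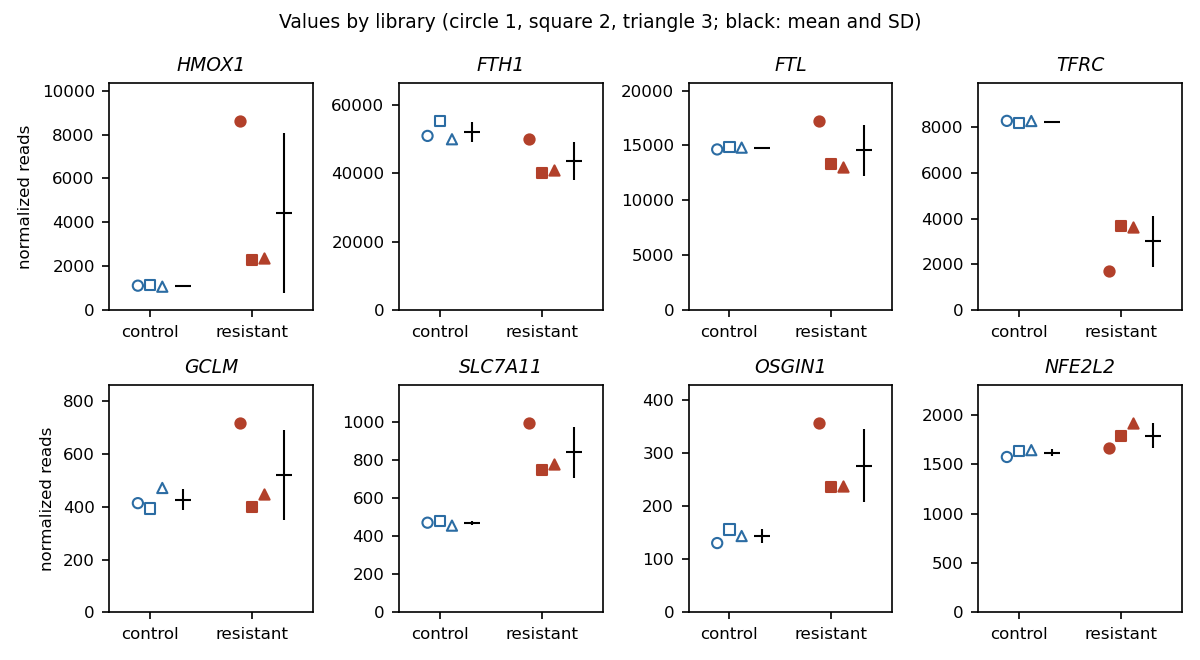
Normalized reads (y axis, from 0) in each control and resistant library (x axis) for iron, haem and stress genes, with marker shapes for libraries 1, 2 and 3 and the mean and SD in black, n = 3 per group. Resistant library 1 is highest for HMOX1 at 8624 and lowest for TFRC at 1721.

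In the pentose phosphate and NADPH group 2 of 4 members were lower and none higher, with a median log2 fold change of -0.24. The shares among genes with a mean of at least 100 were 34.9% lower and 28.1% higher. PGD, 6-phosphogluconate dehydrogenase of the oxidative pentose phosphate branch (ENSG00000142657, chr1:10398592-10420144), had 789, 797 and 773 normalized reads against 1186, 1244 and 1167. The groups were well separated, at a log2 fold change of -0.61 ± 0.07 (SE, limma adjusted p = 1.78e-07). PGLS, a lactonase of the same branch that is no member, was chosen after its values were seen. It was higher, at 2515 ± 232 against 1607 ± 80.3 normalized reads (SD, n = 3 each) and a log2 fold change of 0.64 (limma adjusted p = 1.02e-07). Other non-member genes of this branch are not named here, so PGLS does not stand for them. Of the 18 non-member genes tested in this group 6 were higher and 6 lower, beside 20.4% and 21.1% of all genes.

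In the non-oxidative branch, transaldolase TALDO1 had 1494, 1403 and 1402 against 1947, 1899.6 and 1903 normalized reads, a log2 fold change of -0.42 (limma adjusted p = 1.14e-05), without overlap. Transketolase TKT was not called, at -0.06 (95% interval -0.20 to 0.07, limma adjusted p = 0.474), and without resistant library 1 it was -0.13 (adjusted p = 0.0207). With median centring TKT was at -0.20 (limma adjusted p = 0.0122). Quantile normalization gave 0.05 (limma adjusted p = 0.466), and leaving out resistant library 3 gave -0.01 (adjusted p = 0.899). ME1, cytosolic malic enzyme, which makes NADPH from malate, had 645, 654 and 653 against 566, 563 and 610.1 normalized reads. All resistant libraries exceeded the controls, by a log2 fold change of 0.17 (95% interval 0.00 to 0.33, limma adjusted p = 0.0979) that missed the threshold and passed it with quantile normalization (0.22, adjusted p = 0.026).

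In the superoxide and catalase group 2 of 3 members were lower, beside 34.9% of genes with a mean of at least 100. SOD1, the cytosolic copper-zinc superoxide dismutase, had 1898, 1732 and 1797 normalized reads against 2171, 2168 and 2284, a log2 fold change of -0.29 (limma adjusted p = 0.000912). The SOD1 call was lost with limma without trend (adjusted p = 0.052). SOD2, the mitochondrial manganese enzyme, had 20314, 18863 and 19832 against 21514, 22101 and 23531, at -0.19 (limma adjusted p = 0.0131). Both had every resistant library below every control, and the SOD2 call was lost under 3 settings, among them leaving out resistant library 2 (adjusted p = 0.109) or control 3 (adjusted p = 0.0648). CAT, the peroxisomal catalase, was at -0.04 (95% interval -0.18 to 0.11, limma adjusted p = 0.734).

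All 6 quinone, carbonyl and other targets were called, 3 in each direction, beside 63.1% of genes with a mean of at least 100. NQO1, the quinone reductase often used as a readout of NRF2, had 2608, 2521 and 2439 normalized reads against 3067, 2961 and 3156. The groups were apart by a log2 fold change of -0.28 (limma adjusted p = 0.000815), a call lost with limma without trend (adjusted p = 0.0513). CBR1, carbonyl reductase, averaged 474 ± 17.6 against 604 ± 23.8 (SD, n = 3 each), at -0.35 (limma adjusted p = 0.00135).

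UGDH, which makes the UDP-glucuronate used in glucuronidation (ENSG00000109814, chr4:39498755-39528311), had 898, 836 and 806 against 1362, 1443 and 1342 normalized reads. The resistant libraries were all far under the controls, at a log2 fold change of -0.71 ± 0.07 (SE, limma adjusted p = 2.13e-08). UGDH overlaps its antisense gene UGDH-AS1. EPHX1, microsomal epoxide hydrolase (ENSG00000143819, chr1:225810092-225845563), was higher, with 1436, 1549 and 1519 against 942, 952 and 909 normalized reads. The ratio was 1.61, a log2 fold change of 0.68 ± 0.07 (SE, limma adjusted p = 1.8e-08), in a gene that overlaps TMEM63A.

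OSGIN1, an oxidative stress-induced growth inhibitor (ENSG00000140961, chr16:83948282-83966332), had 356, 235 and 237 normalized reads against 130.4, 156 and 144. Library 1 was again highest, and all resistant libraries were above the controls, a 1.93-fold ratio and a log2 fold change of 0.92 ± 0.15 (SE, limma adjusted p = 1.63e-05). Without library 1 it was 0.72, and it was called under all 15 alternative settings. PIR, pirin, a known NRF2 target, had 217, 235 and 207 against 171, 169 and 195 normalized reads. The groups were close but did not overlap, at a log2 fold change of 0.30 (limma adjusted p = 0.0488), a call lost under 10 of 15 settings, among them DESeq2 (adjusted p = 0.0963) and leaving out resistant library 2 (adjusted p = 0.173).

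Set side by side, the glutathione, thioredoxin and pentose phosphate groups had medians of -0.21, -0.24 and -0.24, and the iron and haem group -0.03. With quantile normalization the first of these was -0.24, the thioredoxin median -0.065 and the pentose phosphate median -0.15. In each resistant library the glutathione median was between -0.29 and -0.24, the thioredoxin median between -0.25 and -0.09, and the pentose phosphate median between -0.31 and -0.14. The iron and haem median was 0.22 in library 1 and -0.15 and -0.18 in libraries 2 and 3. Regulators (0.03), superoxide genes (-0.19) and quinone and other targets (0.01) completed the list. Differences between the groups were not tested. Median centring shifted all genes by a median of -0.13, which lowered the higher share among all calls from 49.1% to 35.8% and put every group median below 0. On that scale 2 members were higher and 23 lower, beside 15.1% and 27.1% of all genes. Without resistant library 1 the members divided 6 to 22, beside 20.1% and 21.7% of all genes. Under these 2 settings the shares were not computed for genes with a mean of at least 100. In the main fit the lower share was 34.9% among those genes and 21.1% among all.

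**Figure D4:**
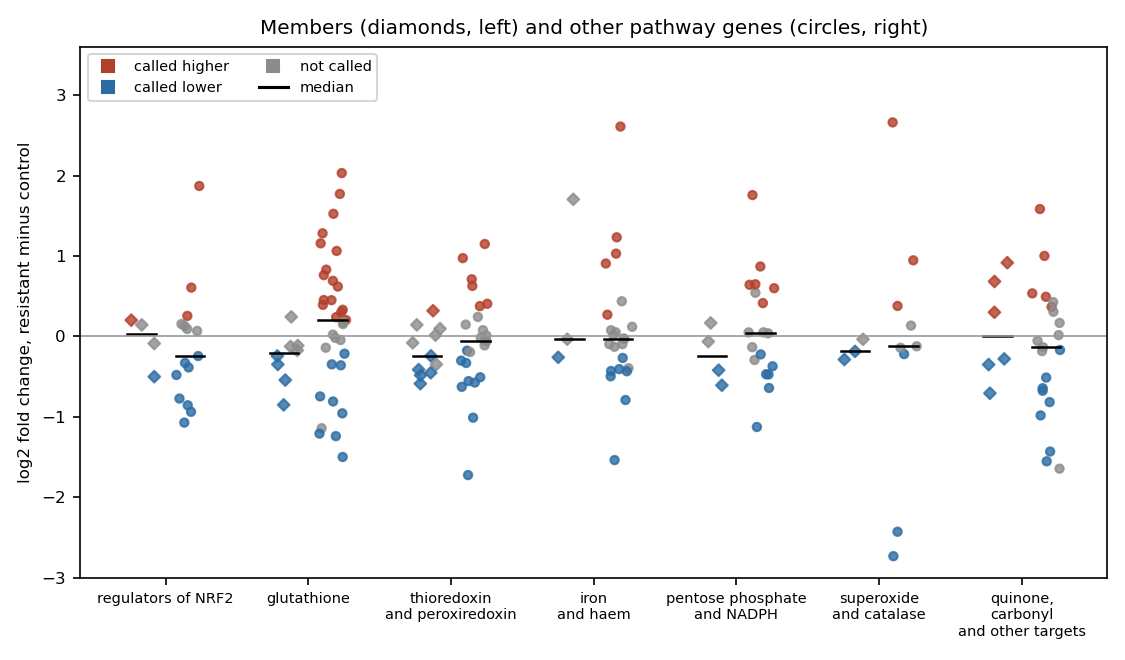
Log2 fold change (y axis, resistant minus control) of the 39 members (diamonds) and the other pathway genes tested (circles) by role group (x axis). Member medians run from -0.24 for the thioredoxin and pentose phosphate groups to 0.03 for the regulators, and the other pathway genes spread further to both sides.

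Lower members were not all in lower surroundings. Over the 25 tested genes on each side of a member, the median log2 fold change was -0.02 for GSR, 0.07 for TXN, 0.13 for PGD, 0.09 for UGDH and -0.01 for KEAP1, where the members themselves lay between -0.85 and -0.50. PRDX3 lay among lower genes, with a neighbour median of -0.49 and 26 of 50 neighbours lower against 1 higher. GLRX (-0.32) and NQO1 (-0.24) also had lower neighbours, while EPHX1 was higher among neighbours at -0.23. TXNRD1 was lower among neighbours at 0.24.

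A list of 152 other genes of the same pathways gave a more even division. Values were present for 146, the genes FTMT, CYBB, NOX4, ALDH1A1, UGT1A6 and UGT1A1 being not analysed here, and 143 passed the filter. Of these 45 were higher, 50 lower and 48 not called, or 66.4% called, with a median log2 fold change of -0.02. Of all genes tested 41.5% were called, 20.4% higher and 21.1% lower. For genes with a mean of at least 100 the share was 63.1%, with 28.1% higher and 34.9% lower. In the glutathione group 17 of 33 were higher and 9 lower, where the members had none higher and 4 of 8 lower, a difference between the lists that was not tested. The regulators had 3 higher and 8 lower of 15, the thioredoxin group 6 and 9 of 24, iron and haem 5 and 7 of 23, pentose phosphate and NADPH 6 and 6 of 18, superoxide 3 and 3 of 9, and quinone and other targets 5 and 8 of 21.

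Around KEAP1, DPP3, a protein that can bind KEAP1, averaged 1316 ± 74.3 against 2769 ± 186 normalized reads (SD, n = 3 each), a log2 fold change of -1.07 (limma adjusted p = 1.11e-11). BACH2, a relative of BACH1, was at 53.7 ± 6.98 against 14.0 ± 2.86, a log2 fold change of 1.87. Chosen after their values were seen, CUL3, the ligase scaffold, was at -0.48 and SQSTM1, the p62 protein that binds KEAP1 and is itself an NRF2 target, at -0.94. Of the NRF2 relatives and partners, NFE2L3 was at -0.86 and MAFK at 0.61. All of these passed the limma test, and NFE2L3 and MAFK were also chosen after their values were seen.

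For glutathione, SLC7A11, the cystine carrier (chosen after its values were seen), had 994, 749 and 779 normalized reads against 471, 479 and 456, a log2 fold change of 0.83 ± 0.09 (SE, limma adjusted p = 1.15e-07), with all resistant libraries above the controls. Its partner SLC3A2 was at 0.39 (limma adjusted p = 0.0012, and 0.0866 without the trend), and CTH, which releases cysteine from cystathionine, at 1.16 (207 ± 14.1 against 92.5 ± 11.5). CHAC1, which degrades glutathione, had 232, 155 and 141 against 75.0, 96.6 and 75.2 normalized reads, at 1.06 (limma adjusted p = 2.47e-05), while its relative CHAC2 was at -1.50 and GGT1, which degrades extracellular glutathione, at -1.21. Among conjugating transferases, GSTM4 was at 2.03, GSTM2 at 1.77 and GSTM3 at 1.28, close paralogs whose reads may be shared, and GSTO1 at -0.96. GLRX3, an iron-sulfur glutaredoxin, had a mean of 811 ± 34.1 against 1916 ± 58.0 normalized reads and lay at -1.24. GLRX3 and GSTO1 stand among lower neighbours on chromosome 10, with medians of -0.52 and -0.61. SLC3A2 and GSTO1 were also chosen after their values were seen.

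In the remaining groups, the methionine sulfoxide reductase MSRB2 was at 1.15 and TXNDC9 at -1.01. TXNIP, the thioredoxin inhibitor, chosen after its values were seen, was at -0.57. ALDH1L2, which makes NADPH in mitochondrial folate metabolism, averaged 1321 ± 48.4 against 390.3 ± 26.6 normalized reads and lay at 1.76 (limma adjusted p = 1.6e-14). NOX5, a superoxide-producing oxidase, was at -2.43 from 12.3 ± 3.06 against 70.5 ± 16.4. ABCC2, an exporter of conjugates, was at -1.55 with neighbours at a median of -0.43. TRIM16L had 2372, 1491 and 1508 against 599, 553 and 596 normalized reads, at 1.58 (limma adjusted p = 0.000638). SLC2A1, the glucose carrier, had 12206, 7512 and 7612 against 4597, 4486 and 4216, at 1.00 (limma adjusted p = 0.0231), a call lost when any 1 control was left out. Resistant library 1 was highest for both TRIM16L and SLC2A1, as it was for HMOX1 and OSGIN1.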

How the data were processed

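RNA-seq of 3 resistant and 3 control libraries was analysed. The authors deposited 1 table per library with 30330 Ensembl genes and a value on a signal scale, which the values show to be gene-level reads scaled by a single size factor in each library (whole within 0.001 reads for 100% of values). They are called normalized reads. Per the submitters' processing notes, reads were placed on GRCh38. Aligner, counting tool and strand setting are not given in the sources used here.

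Values were tested as log2(value + 1) with limma-trend (limma 3.58.1, R 4.3.3, robust, two-sided, group as sole term), for the 24560 genes that reached 1 in 3 or more libraries, with Benjamini-Hochberg adjustment over all of them and a threshold of 0.05. Because the values were normalized, count tests (edgeR 4.0.16, DESeq2 1.42.0) were run on the recovered reads as alternatives. The other alternatives were median centring, quantile normalization, a pseudocount of 0.1, a minimum of 5 or no filter, limma without trend, a replicate block and leaving out each library. The log2 scale understates differences of low genes. The script was tested on simulated data.

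A table of Ensembl identifiers gave symbols for 23695 genes and GENCODE 29 for 6620 more. Gene coordinates equalled GENCODE 29 for 30325 of the genes. Promoters are RefSeq's, on GRCh38.p14.

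Members, role groups and the other gene lists were chosen with earlier results of these data known. Values per library are given for the regulators, for called members with an absolute log2 fold change of at least 0.5 and for members a group comparison turns on. Other pathway genes are named when called at an absolute log2 fold change of at least 1 with 50 or more normalized reads in the higher group, except for a result that is not reported here. Outside that rule, SLC7A11, SLC3A2, CUL3, SQSTM1, MAFK, NFE2L3, BLVRB, ALAS1, PGLS, TXNIP and GSTO1 were chosen after their values were seen.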

Additional observations from a re-analysis of the deposited data

How the results depend on the processing

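Of 585 combinations of a member and an alternative setting, 521 kept the direction and side of the threshold, 37 lost a call, 17 gained one and 10 turned sign. Of the 23 called members, 14 kept the call under all 15 settings, and edgeR gave each of the 39 members the same call as limma-trend. The count of higher members, 5, was 2 with median centring and 2 with limma without trend, and leaving out each library gave 3 to 6. The count of lower members, 18, ran from 12 (limma without trend) to 23 (median centring), and from 15 to 22 when each library was left out. The median log2 fold change moved with quantile normalization to 0.093 for regulators, -0.24 for glutathione, -0.065 for thioredoxin and -0.15 for pentose phosphate genes. With median centring it was -0.11, -0.34, -0.38 and -0.38 for the same groups, -0.32 for superoxide genes and -0.12 for quinone and other targets. Leaving out each library gave -0.32 to -0.18 for the glutathione median. The sign of uncalled members turned for GPX1 (0.0067), TKT (0.054) and CAT (0.038) with quantile normalization, for PRDX4 (-0.12) and PRDX5 (-0.038) with median centring, and when a library was left out, for GCLM (range -0.012 to 0.41), PRDX4 (-0.043 to 0.069) and CAT (-0.082 to 0.028), each turning without resistant library 1, and FTL (-0.16 to 0.039, positive without resistant library 2 or 3). The cause was not tested. With the replicate block 4 members were higher and 18 lower, and over all genes 5003 and 5171, beside 5010 and 5194 without it. Same-numbered libraries showed no shared deviation (correlations -0.00148, 0.000115 and 0.00671). The labels do not say whether they were handled together. Of 480 combinations for the other named genes, 472 were unchanged and 8 lost a call. With 3 libraries a group, of which 1 stands apart in the resistant line, differences near 0.2 on the log2 scale rest on the choice of scaling, and genes with few reads, such as GPX2, are poorly resolved.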
